A study of Mus musculus with 4 samples.

Results

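The genes described here are the pyruvate dehydrogenase subunits and the enzymes that switch the complex off and on. They are the 4 kinase genes Pdk1, Pdk2, Pdk3 and Pdk4, the 2 phosphatase genes Pdp1 and Pdp2, and the 4 subunit genes Pdha1, Pdhb, Dlat and Dld. These 10 genes were found by their symbols among 40092 rows of the count table. Pdk4 prompted the choice: it was selected on its difference between the genotypes in these same libraries, so its difference is given as a description with no test, and the other 9 were taken for their function with that result known.

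Gene counts were compared between 2 libraries of Ctrl and 2 libraries of A5-CKO AT2 cells, the surfactant-making cells of the alveolus that also act as its stem cells. Ctrl mice were Alkbh5flox/+; Sftpc-CreERT2; Rosa26-mTmG and A5-CKO mice were Alkbh5flox/flox with the same Cre and reporter, so that Ctrl cells also lose 1 of the 2 alleles of Alkbh5, an enzyme that removes the m6A mark from RNA. All mice received tamoxifen and then bleomycin, a drug that injures the lung, and GFP+ cells were sorted on day 14. Because Sftpc drives the Cre, the sort takes cells that once were AT2 cells together with their descendants, and the sources do not say whether a library holds 1 mouse or a pool, so p-values measure the spread between these libraries only.

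The libraries held 18144865 to 20811757 counts, and a gene with 3 counts, taken as the floor of detection for counting error only, would have 0.128 to 0.177 CPM (counts scaled to library size, here with TMM factors). The targeted gene, Alkbh5, had 81.7 and 152 CPM in the Ctrl libraries and 19.3 and 36.6 in the A5-CKO libraries. It was lower in both A5-CKO libraries, by a log2 difference of -2.06 ± 0.46 (SE, edgeR adjusted p = 0.528) that did not pass the adjusted threshold. The defining AT2 genes were present throughout, and the 10 AT2 markers summed to 66479 and 92291 CPM in Ctrl, against 48903 and 40487 in A5-CKO.

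Pyruvate dehydrogenase is the mitochondrial complex that turns pyruvate, the end product of glycolysis, into acetyl-CoA. Its kinases phosphorylate the E1 alpha subunit and shut the complex off, and its phosphatases remove the phosphate and turn it on again, so the balance of the 2 enzyme classes sets how much pyruvate is burned. Pdk4 is known as the kinase induced by fasting, fatty acids and glucocorticoids, Pdk1 as a target of the hypoxia factor HIF1, Pdk2 as the broadly expressed form, and Pdk3 as a form with high basal activity. In AT2 cells, acetyl-CoA also feeds the synthesis of surfactant lipids.

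The promoters of Pdk4, which prompted the choice, and of Pdk2 are shown. Among the genes that did not prompt the choice, Pdk2 was the 1 with an unadjusted p under 0.05 in edgeR. The difference in Pdk2 did not pass the adjusted threshold. Both promoters are from RefSeq on GRCm38.p6 and lie on the minus strand. They run 5′ to 3′ from 250 bases before the start to 50 bases after it. The Pdk4 promoter is chr6:5496229-5496528 and the Pdk2 promoter is chr11:95041322-95041621. RefSeq gives Pdk2 a further start, whose promoter (chr11:95040826-95041125) is not printed and held 0 matches to the motifs below. Capitals mark the matches to the 7 motifs searched on both strands, which were AGGTCA (half-site of nuclear receptors such as the PPARs), AGAACA (half-site of the glucocorticoid receptor), GTAAACA (FOXO core), ACGTG and GCGTG (hypoxia response cores), CCAAT and TATAAA.
Pdk4: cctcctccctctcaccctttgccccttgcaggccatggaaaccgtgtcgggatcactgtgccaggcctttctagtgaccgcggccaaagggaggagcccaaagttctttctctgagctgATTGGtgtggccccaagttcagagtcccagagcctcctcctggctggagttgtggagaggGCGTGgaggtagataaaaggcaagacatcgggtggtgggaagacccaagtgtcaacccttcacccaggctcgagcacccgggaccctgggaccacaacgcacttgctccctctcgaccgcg
Pdk2: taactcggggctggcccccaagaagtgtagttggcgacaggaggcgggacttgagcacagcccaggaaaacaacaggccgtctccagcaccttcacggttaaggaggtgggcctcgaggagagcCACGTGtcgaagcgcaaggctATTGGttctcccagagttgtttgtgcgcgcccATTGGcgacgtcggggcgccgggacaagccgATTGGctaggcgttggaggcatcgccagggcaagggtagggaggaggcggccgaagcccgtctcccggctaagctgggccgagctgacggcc

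The Pdk4 promoter held 1 CCAAT and 1 GCGTG match. The motif CCAAT was found in 37.4% of 32851 promoters of this length and GCGTG in 32.4%. The Pdk2 promoter held 3 CCAAT motifs and a single CACGTG, which contains ACGTG on both strands and was thus counted as 2 overlapping matches, and ACGTG was found in 19.6% of all promoters. The letters of the nuclear receptor, glucocorticoid receptor, FOXO and TATAAA motifs were not in these 2 windows, and those motifs were found in 16.3%, 19.0%, 3.65% and 13.6% of all promoters. Promoters were found for 9 of the 10 genes, all but Pdp1.

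Pdk4 (chromosome 6, 5483351 to 5496278, GRCm38.p6, 11 exons in its longest coding transcript) was low in both Ctrl libraries and several-fold higher in both A5-CKO libraries. It had 59 and 63 counts in Ctrl 1 and Ctrl 2 and 452 and 488 counts in A5-CKO 1 and A5-CKO 2. On the CPM scale it had 3.49 and 3.67 in Ctrl, against 20.5 and 20.9 in A5-CKO, a mean of 3.58 ± 0.125 (SD, n = 2) against 20.7 ± 0.280 (SD, n = 2). The groups did not overlap, and the libraries of each genotype lay close together. The log2 fold change was 2.53 ± 0.42 (SE), or 5.77-fold, and it ranked 227 of 16661 genes tested by its size in that direction.

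Pdk2 (chromosome 11, 95026258 to 95041371, 11 exons) was the most abundant of the 4 kinases in Ctrl and lower in both A5-CKO libraries. It had 1518 and 2463 counts in Ctrl, against 1402 and 883 in A5-CKO, which is 89.8 and 143 CPM against 63.5 and 37.7 CPM. Ctrl averaged 117 ± 37.9 (SD, n = 2) against 50.6 ± 18.2 (SD, n = 2). The groups did not overlap, but the libraries of a genotype differed from each other far more than they did for Pdk4. The log2 fold change was -1.20 ± 0.39 (SE), with an unadjusted p of 0.0178 and an adjusted p of 0.528 from edgeR's quasi-likelihood test over all genes, above the threshold of 0.05. With 1 library left out it lay between -1.64 (A5-CKO 1 left out) and -0.88 (Ctrl 2 left out).

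Pdk1 (chromosome 2, 71873215 to 71903858, 11 exons) had 37.8 and 61.7 CPM in Ctrl, against 38.3 and 24.7 CPM in A5-CKO. The groups overlapped, since A5-CKO 1 lay just above Ctrl 1. Its log2 fold change was -0.66 ± 0.39 (SE, edgeR adjusted p = 0.578), and with 1 library left out it lay between -1.02 (A5-CKO 1 left out) and -0.31 (Ctrl 2 left out). Pdk3 (chromosome X, 93764616 to 93832150, 12 exons) had 34.4 and 46.4 CPM in Ctrl, against 30.6 and 37.5 CPM in A5-CKO, with overlapping groups. Its log2 fold change was -0.25 ± 0.33 (SE, edgeR adjusted p = 0.809), and it turned to 0.081 when libraries were scaled by total counts only. With 1 library left out it lay between -0.43 (A5-CKO 2 left out) and -0.053 (Ctrl 2 left out).

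**Figure D1:**
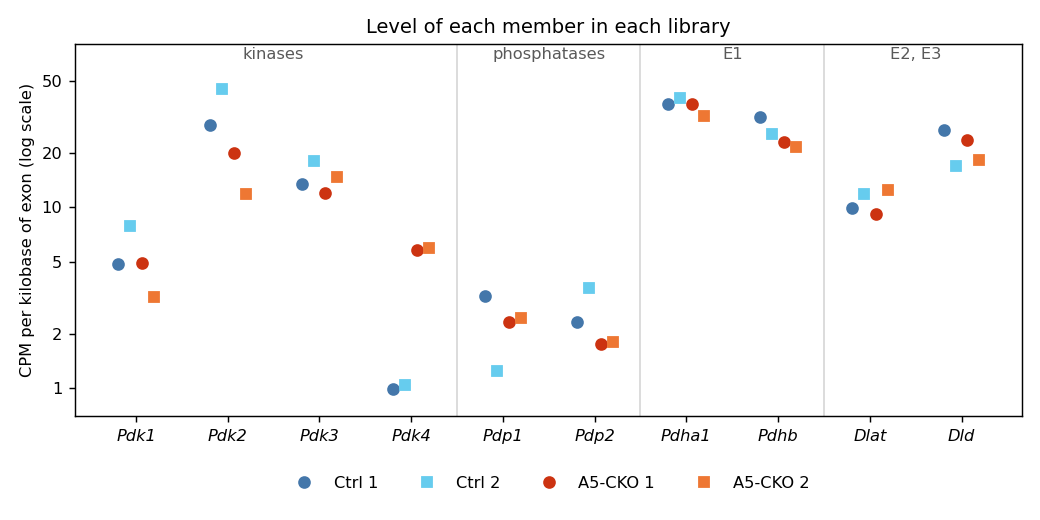
Level of each of the 10 genes in each library, in CPM per kilobase of exon on a log axis, with 1 point per library and the genes ordered by role. Pdk4 sits near 1 in both Ctrl libraries and near 6 in both A5-CKO libraries. Pdk2 is highest in Ctrl 2, followed by Ctrl 1, A5-CKO 1 and A5-CKO 2. The subunit genes differ less between libraries than Pdk4 and Pdk2 do.

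The make-up of the kinase counts can be read within a library, where no scaling factor enters. Longer transcripts give more counts, so these shares are not shares of transcripts. Pdk4 made up 2.11% of the counts of the 4 kinase genes in Ctrl 1 (59 of 2797, exact Clopper-Pearson 95% interval 1.61 to 2.71) and 1.44% in Ctrl 2 (63 of 4383, interval 1.11 to 1.84). It made up 13.4% in A5-CKO 1 (452 of 3376, interval 12.3 to 14.6) and 17.3% in A5-CKO 2 (488 of 2827, interval 15.9 to 18.7). The intervals cover counting error only and describe each library, since these counts also prompted the choice of Pdk4.

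The share of Pdk2 was 54.3% and 56.2% in Ctrl, against 41.5% and 31.2% in A5-CKO. The remaining counts went to Pdk1 and Pdk3, and the share of Pdk1 stayed between 20.5% and 25.1% in the 4 libraries. The share of Pdk3 was 20.8% and 18.2% in Ctrl and 20.02% in A5-CKO 1, but 31.0% in A5-CKO 2, so the 2 A5-CKO libraries were not alike in this respect. Per kilobase of exon, the share of Pdk1 lay lower, between 8.91% (A5-CKO 2) and 11.5% (A5-CKO 1). On that scale Pdk3 made up 41.0% in A5-CKO 2, above Pdk2 with 33.4%.

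**Figure D2:**
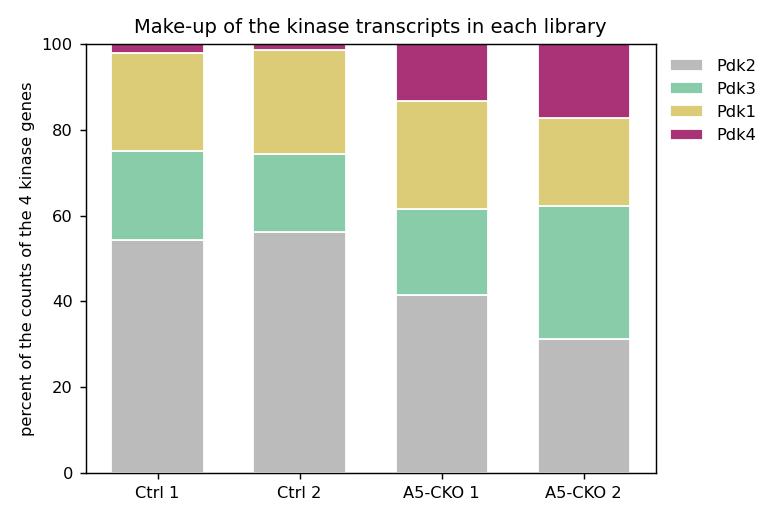
Stacked bars of the percent of the counts of the 4 kinase genes that belong to Pdk2, Pdk3, Pdk1 and Pdk4, 1 bar per library, from 0 to 100. Counts are not divided by transcript length. Pdk4 takes 2.11% and 1.44% in Ctrl against 13.4% and 17.3% in A5-CKO, and the share of Pdk2 is smaller in both A5-CKO bars.

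Ratios per kilobase of exon showed how the kinases shifted against each other. There were 0.0350 and 0.0230 Pdk4 for each Pdk2 in Ctrl, against 0.290 and 0.498 in A5-CKO, a log2 difference of 3.74 with a pooled SD of 0.49 between libraries of a genotype. The ratio of Pdk1 to Pdk2 was 0.171 and 0.175 in Ctrl, against 0.245 and 0.267 in A5-CKO. The libraries of a genotype were close to each other in this ratio, with a log2 difference between genotypes of 0.56 against a pooled SD of 0.062, but a two-sided exact permutation test of 2 against 2 libraries cannot go below 0.333, and it gave p = 0.333. The ratio of Pdk3 to Pdk2 was 0.473 and 0.400 in Ctrl, against 0.596 and 1.23 in A5-CKO (exact permutation p = 0.333), and in A5-CKO 2 Pdk3 exceeded Pdk2.

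Summed per kilobase, the higher Pdk4 did not make the kinase level of A5-CKO exceed that of Ctrl. The summed level was 47.6 and 72.4 CPM per kilobase in Ctrl, against 42.8 and 35.7 in A5-CKO, a mean of 60.0 ± 17.5 (SD, n = 2) against 39.2 ± 5.004 (SD, n = 2). Without Pdk4 the sums were 46.7 and 71.3 in Ctrl, against 36.9 and 29.8 in A5-CKO. The A5-CKO libraries lay below the Ctrl libraries in both sums. With total counts only, the sums of the 4 kinases overlapped, at 44.4 and 62.2 in Ctrl against 47.3 and 40.1 in A5-CKO, and the sums without Pdk4 did not, at 43.5 and 61.3 against 40.8 and 33.4. Protein levels and enzyme activity were not measured in these libraries.

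The phosphatases, which reactivate the complex, were the least abundant of these genes apart from Pdk4 in Ctrl. Pdp1 (chromosome 4, 11958183 to 11966450, 2 exons), the calcium-sensitive form, had 14.7 and 5.64 CPM in Ctrl, against 10.5 and 11.03 CPM in A5-CKO. The A5-CKO libraries lay between the Ctrl libraries. Its log2 fold change of 0.081 ± 0.55 (SE, edgeR adjusted p = 0.966) was 0.99 without Ctrl 1 and -0.49 without Ctrl 2, so no direction can be given, and the correction for GC content and length also turned it, to -0.31. Pdp2 (chromosome 8, 104591472 to 104599026, 2 exons), the insulin-responsive form, had 13.2 and 20.4 CPM in Ctrl, against 9.96 and 10.3 CPM in A5-CKO. Both A5-CKO values lay under both Ctrl values, with a log2 fold change of -0.74 ± 0.42 (SE, edgeR adjusted p = 0.573), which was -0.43 without Ctrl 2.

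The balance of kinase to phosphatase transcripts overlapped between the genotypes. For each phosphatase transcript there were 8.54 and 15.0 kinase transcripts per kilobase in Ctrl, against 10.5 and 8.40 in A5-CKO, with all 4 kinases counted, and the log2 difference of -0.27 turned to 0.14 when Ctrl 2 was left out. With Pdk4 left out the ratios were 8.36 and 14.7 against 9.08 and 7.002, a log2 difference of -0.48 with a pooled SD of 0.45 (two-sided exact permutation p = 0.667), which was -0.068 when Ctrl 2 was left out. The ratio of Pdp1 to Pdp2 was 1.40 and 0.349 in Ctrl, against 1.33 and 1.36 in A5-CKO, so that Ctrl 2 stood apart from the other libraries (exact permutation p = 1.0).

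The subunit genes differed less between the genotypes than Pdk4, Pdk2, Pdp2 and Pdk1, but Pdhb differed more than Pdk3 and Pdp1. Pdha1 (chromosome X, 160122219 to 160138430, 11 exons) encodes the E1 alpha subunit, on which the kinases and phosphatases act, and had 140 and 150 CPM in Ctrl, against 140 and 120 CPM in A5-CKO. A5-CKO 1 lay below Ctrl 1 by less than this rounding shows. Its log2 fold change was -0.16 ± 0.29 (SE, edgeR adjusted p = 0.864), and with total counts only it turned to 0.16. Leaving out 1 library gave -0.29 (A5-CKO 1 left out) to -0.086 (A5-CKO 2 left out). Pdhb (chromosome 14, 8165991 to 8173303, 10 exons), the E1 beta subunit, had 122 and 98.1 CPM in Ctrl, against 88.4 and 83.1 CPM in A5-CKO. Its log2 fold change was -0.36 ± 0.29 (SE, edgeR adjusted p = 0.666), and both A5-CKO values lay under both Ctrl values, but with total counts only the groups overlapped and the value was -0.049. With 1 library left out it lay between -0.55 (Ctrl 2 left out) and -0.14 (Ctrl 1 left out).

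Dlat (chromosome 9, 50634633 to 50659780, 14 exons), the E2 acetyltransferase, had 48.6 and 58.0 CPM in Ctrl, against 44.6 and 61.1 CPM in A5-CKO. Its log2 fold change was -0.012 ± 0.31 (SE, edgeR adjusted p = 0.990), and its sign followed the scaling, since it was 0.31 with total counts only. Dld (chromosome 12, 31331562 to 31351471, 14 exons), the E3 subunit that is shared with the other 2-oxoacid dehydrogenases and with the glycine cleavage system, had 99.2 and 62.1 CPM in Ctrl, against 86.9 and 67.3 CPM in A5-CKO. The groups overlapped, with a log2 fold change of -0.065 ± 0.34 (SE, edgeR adjusted p = 0.954) that was 0.37 without Ctrl 1, -0.41 without Ctrl 2 and 0.24 with total counts only. Within a library there were 0.842 and 0.631 Pdhb for each Pdha1 in Ctrl, against 0.611 and 0.670 in A5-CKO, and 0.265 and 0.295 Dlat, against 0.244 and 0.389. The groups overlapped in both ratios (exact permutation p = 0.667 and p = 1.0).

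All 10 genes passed the filter on low counts and were tested. In edgeR's quasi-likelihood test 0 of the 10 had an adjusted p under 0.05, where 0% of the 16661 genes tested did. At an unadjusted p under 0.05 Pdk2 was the 1 gene of the 9 that did not prompt the choice, and 9.18% of all genes (1530) reached that level. With length and GC content taken into account, Pdk1 and Pdp2 reached it and Pdk2 did not. DESeq2, the tool of the study's methods, called Pdk4 alone among the 10, against 0.385% of 15306 genes (59), and since Pdk4 was chosen on this contrast nothing is read from that call. limma voom called 0 genes, with 1445 at an unadjusted p under 0.05.

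Both A5-CKO values exceeded both Ctrl values for 1 of the 10 genes, Pdk4, against 20.3% of all genes tested, and lay under them for 4 of the 10 (Pdk2, Pdp2, Pdha1 and Pdhb), against 23.5%. When scaled by total counts only, the genes below were Pdk2 and Pdp2, and Pdha1 moved to the side above. The shares of all genes were taken with TMM factors only, so nothing is read from this change. The median log2 fold change of the 10 genes was -0.20, where the median of all genes tested was -0.017. Of the 10, 2 were positive and 8 negative, where 8183 of all genes tested were positive and 8478 negative. With total counts only, the medians were 0.12 and 0.30 and 6 of the 10 were positive, so that the median of the 10 genes relative to all genes was -0.19 with TMM factors and -0.18 with total counts.

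**Figure D3:**
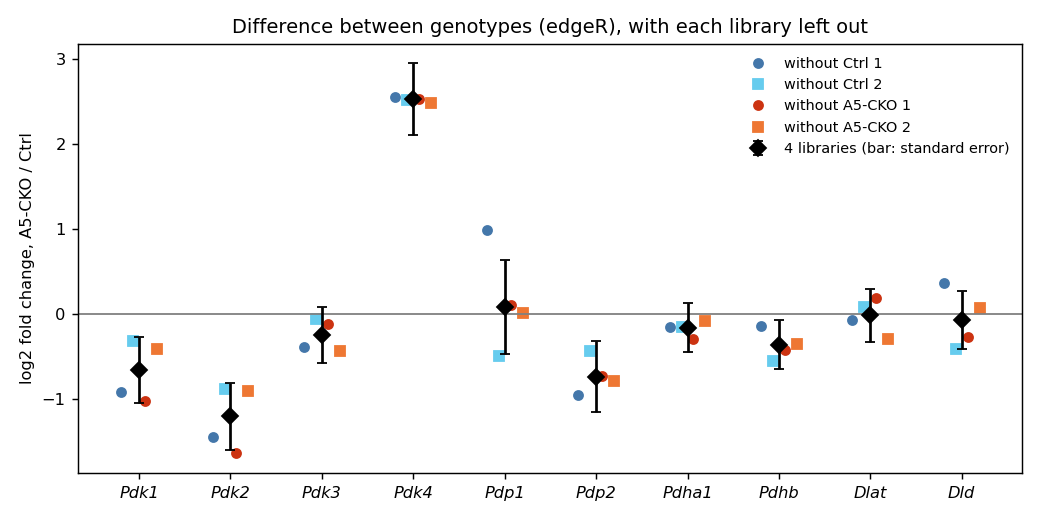
Log2 fold change of A5-CKO over Ctrl for each of the 10 genes (black diamonds, edgeR on 4 libraries, bars of 1 standard error), with coloured points for the fits that leave out 1 library each. Pdk4 stays between 2.48 and 2.55 and Pdk2 between -1.64 and -0.88, while Pdp1, Dlat and Dld change sign with the library left out.

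Over the 4 libraries the order of the levels per kilobase of exon was Pdha1, Pdk2, Pdhb, Dld, Pdk3, Dlat, Pdk1, Pdk4, Pdp2 and Pdp1, from 36.8 ± 3.40 to 2.32 ± 0.822 CPM per kilobase (SD, n = 4). Dld and Pdk3, Pdk3 and Dlat, and Dlat and Pdk1 were the neighbours whose mean log2 ratio within libraries was larger than its SD. The ratio was 0.55 with an SD of 0.54 for Dld to Pdk3, 0.41 with an SD of 0.16 for Pdk3 to Dlat, and 1.12 with an SD of 0.60 for Dlat to Pdk1. The other neighbours did not differ beyond this spread, which is taken over both genotypes and so also holds their differences. Pdk1 averaged 6.39 ± 2.17 CPM per kilobase in Ctrl (SD, n = 2), above Pdk4, and lay below Pdk4 in A5-CKO. In Ctrl, Pdk4 was the lowest of the 10, with 1.02 ± 0.0356 CPM per kilobase (SD, n = 2), and Pdk2 the second highest, with 36.8 ± 11.97. In A5-CKO, Pdk4 was the 7th, with 5.88 ± 0.0796, above Pdk1 with 4.05 ± 1.23, and Pdk2 was the 4th, with 16.0 ± 5.75.

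The genes that bring pyruvate to the complex or use it in other ways were taken as lists. Beside each list stand all 16661 genes tested, of which 8478 were negative with TMM factors. Of all genes tested, 9.18% had an unadjusted p under 0.05 in edgeR. Of 7 genes tested for pyruvate supply and uptake, 0 passed the adjusted threshold in edgeR or DESeq2 and 0 had an unadjusted p under 0.05, and 6 were negative, with a median log2 fold change of -0.30. Scaling by total counts only left 3 negative. Bsg, a chaperone of the lactate and pyruvate transporters, was at -0.75 ± 0.34 (SE) and Mpc2, a subunit of the mitochondrial pyruvate carrier, at -0.41 ± 0.31 (SE). Of 9 genes for other fates of pyruvate, 0 passed in either tool, 2 had an unadjusted p under 0.05, and 8 were negative, with a median of -0.63 (7 negative with total counts only). Gpt, which interconverts pyruvate and alanine, was at -1.39 ± 0.45 (SE), from 146 and 265 CPM in Ctrl to 104 and 53.4 in A5-CKO. Ldhb, a lactate dehydrogenase subunit, was at -0.90 ± 0.33 (SE).

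Downstream of the complex, 16 of the 17 genes for acetyl-CoA use and the citrate cycle were negative and 1 was positive. Of the 16661 genes tested, 8478 were negative. The median of the 17 was -0.43, and 12 had both A5-CKO libraries below both Ctrl libraries, a pattern that 23.5% of all genes tested had. None of the 17 passed the adjusted threshold in edgeR or DESeq2. Slc25a1 and Idh2, 2 of the 17, had an unadjusted p under 0.05 in edgeR, where 9.18% of all genes tested did. Idh2, the mitochondrial NADP-dependent isocitrate dehydrogenase, had 245 and 405 CPM in Ctrl, against 180 and 157 CPM in A5-CKO. Slc25a1, the citrate carrier, had 451 counts in Ctrl 1 against 61, 43 and 54 in the other libraries, so that Ctrl 1 stood far above the rest behind its log2 fold change of -2.82. With total counts only, 12 of the 17 were negative and the median was -0.12, which is -0.42 relative to the median of all genes, as it was with TMM factors. The summed AT2 markers, given above, were also lower in both A5-CKO libraries, and their part in the lower level of these genes and of Pdk2 was not tested.

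Genes known to be under the same control as Pdk4 or Pdk1 were mixed in direction with TMM factors. With total counts only, 9 of 14 PPAR, 9 of 11 glucocorticoid, 9 of 10 FOXO and 9 of 12 HIF target genes were positive, where the median of all genes was 0.30. Of 14 PPAR target genes tested, 4 were positive and 10 negative, with a median log2 fold change of -0.18, which was -0.039 with 6 positive when Ctrl 2 was left out and -0.29 when Ctrl 1 was. In edgeR 0 passed the adjusted threshold and 2 had an unadjusted p under 0.05, where 9.18% of all genes tested did. DESeq2 called Acadvl, as it did 0.385% of all genes it tested. Angptl4, often induced together with Pdk4, had 0 counts in every library, and Cpt1a, the gate of fatty acid oxidation, had 51.3 and 129 CPM in Ctrl, against 92.5 and 105 in A5-CKO. Acadvl, a fatty acid dehydrogenase, had 26 and 46 counts in Ctrl, against 230 and 251 in A5-CKO, with a log2 difference of 2.32 ± 0.55 (SE, edgeR adjusted p = 0.528), and Acaa2 was at -0.79 ± 0.31 (SE). Cpt1a and Angptl4 are named after their values were seen.

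Of 11 glucocorticoid target genes, 7 were positive and 4 negative, with a median of 0.33 that was -0.41 without A5-CKO 2 and -0.013 without Ctrl 1. Fkbp5, a chaperone of the receptor itself, had 49 and 28 counts in Ctrl, against 2 and 33 in A5-CKO, and the kinase Sgk1 had 1828 and 535 against 1393 and 4576. Of 10 FOXO target genes, 5 were positive and 5 negative, with a median of 0.0067 that was -0.42 with A5-CKO 1 left out and 0.21 with A5-CKO 2 left out. Klf15, a metabolic transcription factor, had 43.5 and 133 CPM in Ctrl, against 17.6 and 29.7 in A5-CKO, and Cdkn1b was at -0.18 ± 0.31 (SE). Of 12 HIF target genes, 6 were positive and 6 negative, with a median of 0.19 that was -0.38 without A5-CKO 2. Bnip3, a mitophagy receptor, was at -0.89 ± 0.28 (SE) and Vegfa, the endothelial growth factor, at 0.98 ± 0.40 (SE). None of the genes in the glucocorticoid, FOXO and HIF lists passed the adjusted threshold in edgeR or DESeq2. In these lists 0, 1 and 2 had an unadjusted p under 0.05 in edgeR, where 9.18% of all genes tested did.

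Among 14 transcription factors known to act on the Pdk genes, 4 were positive and 10 negative, with a median of -0.36 that was 0.23 without Ctrl 2 and -0.022, with 6 positive, on the scale of total counts. None passed the adjusted threshold in edgeR or DESeq2, and 1, Srebf1, had an unadjusted p under 0.05 in edgeR, where 9.18% of all genes tested did. Srebf1, the lipid synthesis factor, had 622 and 767 CPM in Ctrl, against 291 and 314 in A5-CKO, with a log2 difference of -1.20 ± 0.33 (SE, edgeR adjusted p = 0.528), and Esrra was at -0.54 ± 0.30 (SE).

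**Figure D4:**
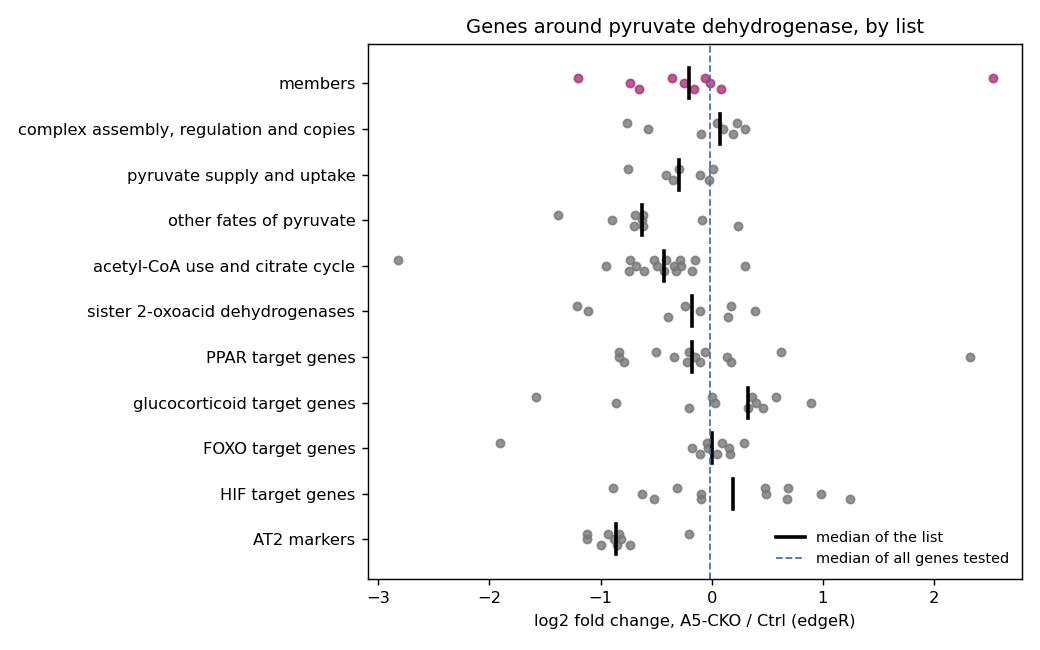
Log2 fold change of A5-CKO over Ctrl (edgeR) of each tested gene by list, 1 point per gene, with the median of the list as a black bar and the median of all genes tested, -0.017, as a dashed line. Pdk4 at 2.53 lies apart from the other 9 genes of its list, and the citrate cycle genes and AT2 markers lie mostly to the left of the dashed line.

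The sort could hold other cells, so marker lists were set beside these values. Leukocyte and macrophage markers (10 genes) summed to 885 and 197 CPM in Ctrl, against 246 and 1107 in A5-CKO, and mesenchymal markers (8 genes) to 425 and 156 in Ctrl, against 98.8 and 1105 in A5-CKO. Dissociation stress genes (8 genes) summed to 2721 and 4934 CPM in Ctrl, against 8147 and 2144 in A5-CKO, and nuclear RNAs (5 genes) to 1340 and 1252 in Ctrl, against 6848 and 2457 in A5-CKO. The 2 A5-CKO libraries differed from each other in each of these sums. The part of these cells and states in the level of Pdk4 was not tested. Nuclear RNAs were above Ctrl in both A5-CKO libraries, as Pdk4 was, in 3 of the 4 that were tested, a pattern that 20.3% of all genes tested had (Meg3 had 0 counts). Malat1 had 722 and 621 CPM in Ctrl, against 3607 and 1304 in A5-CKO, Neat1 had 459 and 491 against 2413 and 750, and Xist had 149 and 123 against 805 and 390. DESeq2 called Xist, as it did 0.385% of all genes it tested, and edgeR did not (adjusted p = 0.528). The paper does not state the sex of the mice, and the part of sex in the level of Xist was not tested. The part of the nuclear RNAs in the level of Pdk4 was not tested. Among the 10 leukocyte and macrophage markers, 1 was higher in both A5-CKO libraries and 1 was lower in both, against 20.3% and 23.5% of all genes tested. The higher one, Ptprc (CD45), had 50.9 and 22.5 CPM in Ctrl, against 84.3 and 82.8 in A5-CKO. The lower one, Siglecf, had 6.09 and 5.29 CPM in Ctrl, against 0.634 and 4.32 in A5-CKO. The part of these 10 genes' cells was not tested either.

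Markers of further cell types were set beside these values in the same way. Striated muscle markers (6 genes) summed to 5.44 and 3.78 CPM in Ctrl, against 2.63 and 7.74 in A5-CKO. Adipocyte markers (4 genes) summed to 1.89 and 2.27 CPM in Ctrl, against 0.770 and 1.54 in A5-CKO, with Lep at 0 and Adipoq at no more than 2 counts. Endothelial markers (6 genes, Cldn5 at 0) summed to 134 and 212 CPM in Ctrl, against 95.7 and 209 in A5-CKO. Lymphoid and plasma cell markers (6 genes) summed to 688 and 109 CPM in Ctrl, against 173 and 661 in A5-CKO. In each of these 4 lists the groups overlapped or the A5-CKO libraries were lower. In bulk RNA, fewer cells of a type and less RNA per cell cannot be told apart.

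Epithelial states were read in the same way. AT1 markers (6 genes) summed to 1207 and 1071 CPM in Ctrl, against 791 and 915 in A5-CKO. Transitional cell markers (6 genes) summed to 2636 and 1024 CPM in Ctrl, against 1561 and 2868 in A5-CKO, and airway epithelial markers (6 genes) to 2777 and 2692 in Ctrl, against 1894 and 1244 in A5-CKO. All 6 transitional markers were positive, with a median log2 fold change of 0.18. That median was 1.49 without Ctrl 1, -0.29 without Ctrl 2 and -0.33 without A5-CKO 2. Of the 6, 1 was higher in both A5-CKO libraries, against 20.3% of all genes tested. The AT1 and airway sums were lower in both A5-CKO libraries, as Pdk2 was, and their part in its level was not tested. Aqp5 made up most of the AT1 sum, with 981 and 951 CPM in Ctrl, against 479 and 636 in A5-CKO. Ager and Pdpn did not pass the filter on low counts. Among the AT1 markers tested, 2 were higher in both A5-CKO libraries and 1 was lower in both. These patterns were found in 20.3% and 23.5% of all genes tested. The AT1 sum and the median differed in sign, since 3 of the 4 AT1 markers tested were positive, with a median log2 fold change of 0.69, which lay between 0.27 (Ctrl 2 left out) and 1.28 (Ctrl 1 left out). All 10 AT2 markers were lower on average in A5-CKO, with a median log2 fold change of -0.86, and 7 of them lay lower in both A5-CKO libraries, against 23.5% of all genes tested. The median was -0.53, with 9 of 10 negative, when total counts alone set the scale. Sftpb, a surfactant protein gene, was at -1.12 ± 0.35 (SE) and Napsa, the protease that processes surfactant protein, at -1.13 ± 0.39 (SE), and neither passed the adjusted threshold in edgeR.

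Some of the 10 genes overlap others, and since the strand setting is not known, shared reads are uncertain. The 2 long non-coding RNAs that overlap Pdk2, LOC115486429 and Gm11513, had at most 2 counts in a library, Gm46689, which overlaps Pdk3, had at most 7, and no annotated gene overlaps Pdk4. Map3k15 overlaps the end of Pdha1 and had 1040 and 972 counts in Ctrl, against 1560 and 1214 in A5-CKO, so reads shared between Map3k15 and Pdha1 are uncertain. Pdha2, the testis copy of Pdha1, had 0 counts in all libraries.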

How the data were processed

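RNA-seq gene counts of 4 libraries of GFP+ AT2 cells (2 Ctrl, 2 A5-CKO; groups from the genotype labels) were used. The authors trimmed reads with Trim Galore (0.6.10), removed ribosomal reads and duplicates, aligned to mm10.p6 with HISAT2 (2.2.1) and deposited raw counts per gene from featureCounts (2.0.3, versions per the submitters' processing notes); the methods describe the counting step for another assay, and the strand setting is not given in the sources used here.

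Counts were fitted with edgeR 4.0.16 in R 4.3.3 (TMM factors, filterByExpr, glmQLFit and glmQLFTest, genotype only, Benjamini-Hochberg over 16661 of 40092 genes; common dispersion 0.173). The SE of a fold change was taken as its size over the root of the F statistic. Levels per kilobase use the union of GENCODE M21 exons, which differs from the authors' annotation. Ratios were compared with two-sided exact permutation tests. Alternatives were RLE, upper-quartile and no factors, other filters, DESeq2 1.42.0, limma voom (3.58.1), a replicate block, splines with 4 degrees of freedom on GC content and length (15237 genes, 91.5% of those tested), and each library left out.

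The genes, lists and tests were chosen with earlier results of these data known. The rule for named genes took the 10, from each further list the 2 with the smallest p, the 5 most like Pdk4, and Alkbh5. Marker lists are given mainly by their sums, so that most of the genes the rule takes from them go unnamed. Neat1, Meg3, Lep, Adipoq, Cldn5, Ager and Pdpn fall outside the rule and were named after their values were seen. Within a genotype, libraries differed beyond sampling noise (chi-square over its degrees of freedom 120 in Ctrl and 107 in A5-CKO).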

Additional observations from a re-analysis of the deposited data

How the results depend on the processing

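With 2 libraries in each group the spread between libraries limits these results, and leaving 1 out leaves a lone library that is assumed to vary like the others. No gene had an adjusted p under 0.05 in edgeR with any scaling, filter, block, correction or library left out, or in limma voom, with 746 to 1877 genes at an unadjusted p under 0.05. DESeq2 called 64 of the genes that edgeR tested and 59 under its own default filter, and the cause was not tested.

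Of 140 results, each of the 10 genes in 1 of 14 alternatives, 122 kept direction and side of the threshold, and Pdk1, Pdk2, Pdk4, Pdp2 and Pdhb kept their direction in all 14. Directions turned as follows, as log2 fold changes. With total counts only, Pdk3 was 0.081, Pdha1 0.16, Dlat 0.31 and Dld 0.24, and with upper-quartile factors Dlat was 0.090 and Dld 0.019. Dlat was 0.038 with RLE factors, 0.033 with at least 10 counts in every library, and 0.038 and 0.022 in DESeq2 on the same genes and on all genes. With the GC content and length correction Pdp1 was -0.31. With 1 library left out, Pdp1 lay between -0.49 and 0.99, Dlat between -0.29 and 0.18, and Dld between -0.41 and 0.37.

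The median log2 fold change of the 10 genes, -0.20, was -0.10 with upper-quartile factors, 0.12 with total counts only and -0.31 with the GC content and length correction, and leaving out single libraries gave -0.36 to -0.15. That of Pdk4 ranged from 2.32 with the GC content and length correction to 2.85 with total counts only. With the length of the longest transcript in place of the union of exons, 6 of the 10 genes kept their rank, and Pdk2 and Pdhb, and Pdp1 and Pdp2, changed places.

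The replicate numbers do not mark a pairing that the sources name, and the deviations of libraries that share a number had r = -0.35 across genes. With the replicate block 0 genes passed, 754 had an unadjusted p under 0.05, the median of the 10 genes was -0.20, and the block changed no call.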

Other observations

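The branched-chain 2-oxoacid dehydrogenase is built like pyruvate dehydrogenase and has a kinase and a phosphatase of its own. Its kinase Bckdk had 89.8 and 99.5 CPM in Ctrl, against 52.2 and 59.5 in A5-CKO, with a log2 difference of -0.76 ± 0.28 (SE, edgeR adjusted p = 0.528). Its E1 alpha subunit Bckdha had 174 and 174 CPM in Ctrl, against 81.8 and 79.0 in A5-CKO, with a log2 difference of -1.11 ± 0.28 (SE, edgeR adjusted p = 0.528). Ogdh, the E1 of the oxoglutarate complex that also uses Dld, had 293 and 616 CPM in Ctrl, against 181 and 212 in A5-CKO. The libraries did not overlap by genotype for any of these 3 genes, a pattern that 23.5% of all genes tested had in this direction, and Ctrl 2 stood apart for Ogdh. Of the 8 genes of these sister complexes that were tested, 3 were positive and 5 negative, with a median of -0.17 that was 0.096 without Ctrl 2 and 0.15 with total counts only. Of the 8 tested genes for assembly and regulation of the complexes, 5 were positive and 3 negative, with a median of 0.076 that was 0.017 without Ctrl 1, -0.30, with 2 positive, without A5-CKO 1, and 0.40 with total counts only. Lipt2, of the lipoate pathway, was at -0.57 ± 0.60 (SE). None of these genes passed the adjusted threshold in edgeR or DESeq2. Among the assembly and the sister genes, 1 and 2 had an unadjusted p under 0.05 in edgeR, where 9.18% of all genes tested did.

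The 5 genes most like Pdk4 over the 4 libraries were Akap6, Gm35486, Gm31159, Gm52502 and Gm40863, by the Euclidean distance of centred log2 CPM with a prior count of 2, which was 0.053 for Akap6 and 0.25 for Gm40863. All had few counts. Gm52502 had the most, with 8 and 10 counts in Ctrl, against 68 and 70 in A5-CKO, and Akap6, Gm31159 and Gm40863 had 0 in both Ctrl libraries, so that for these 3 the prior count sets the distance.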
